A study of Mus musculus with 21 samples.

Results

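The 6 long noncoding RNAs *Malat1*, *Neat1*, *Gas5*, *Snhg1*, *Snhg8* and *Snhg12* were followed in IgA+ plasma cells (IgA+ PCs), the antibody-secreting cells of the small intestinal lamina propria. They were taken by gene name from a table of 53801 annotated genes, each matched 1 row, and all 6 passed the filter of at least 10 counts in total that left 20256 genes. *Malat1* and *Neat1* are nuclear RNAs, and *Gas5*, *Snhg1*, *Snhg8* and *Snhg12* are small nucleolar RNA (snoRNA) host genes. Bulk RNA-seq was analysed from 21 mice on the C57BL/6 background, with 1 library per mouse, to ask how the levels differ by time of day and by loss of the cell-intrinsic clock. Cells were sorted as CD138+ IgA+ at ZT0 (lights on) or at ZT12 (lights off). Control mice were Mb1Cre-/- x Arntlfl/fl, with 6 mice at ZT0 and 6 at ZT12. Knockout mice were Mb1Cre+/- x Arntlfl/fl, with 4 mice at ZT0 and 5 at ZT12. Both genotypes therefore carry the floxed *Arntl* alleles, and the ages of the mice are not given in the labels. *Arntl* encodes the clock protein Bmal1, and Cre expressed from the *Mb1* locus (*Cd79a*) acts in the whole B cell lineage from its early stages, so the deletion was not induced in mature plasma cells. The genotype was taken from the sample titles, because 8 of the 9 knockout samples carry the control genotype in a separate label field.

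Long noncoding RNAs act without being translated into protein. *Malat1* collects in nuclear speckles, which store splicing factors, while *Neat1* is the scaffold on which paraspeckles assemble and is known to be induced by cellular stress. In snoRNA host genes the product of note lies in the introns: when the host transcript is spliced, its introns are trimmed to snoRNAs that guide chemical modification of ribosomal and spliceosomal RNA. The spliced exons of such hosts often begin with a pyrimidine tract like that of ribosomal protein mRNAs, and many are degraded by nonsense-mediated decay when they are translated, so that their level responds to both transcription and translation. Plasma cells devote most of their messenger RNA to immunoglobulin and depend on a large ribosome supply.

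The start regions of the 4 host genes are shown so that the pyrimidine tract named above can be looked for in them. RefSeq (GRCm38.p6) gave a start window for 5 of the 6 genes, and *Neat1* was not matched. Each line holds 60 bases before the start and 40 from the start base on, and capitals mark the longest run of C and T that begins with a C within 20 bases of the start (the first of equals in *Snhg1*). The lines are *Gas5* at chr1:161035106-161035205 on the plus strand (the second of its 2 RefSeq starts), *Snhg1* at chr19:8723427-8723526 on the plus strand, *Snhg8* at chr3:123508297-123508396 on the minus strand and *Snhg12* at chr4:132308618-132308717 on the plus strand.
Gas5: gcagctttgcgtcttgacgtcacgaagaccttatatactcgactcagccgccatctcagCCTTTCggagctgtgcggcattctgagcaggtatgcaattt
Snhg1: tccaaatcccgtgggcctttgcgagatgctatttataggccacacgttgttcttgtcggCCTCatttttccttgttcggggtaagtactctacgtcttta
Snhg8: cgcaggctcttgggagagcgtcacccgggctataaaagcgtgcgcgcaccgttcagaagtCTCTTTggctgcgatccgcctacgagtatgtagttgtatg
Snhg12: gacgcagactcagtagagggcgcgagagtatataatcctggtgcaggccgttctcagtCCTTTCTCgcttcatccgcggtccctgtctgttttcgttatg
In *Gas5* the run was 6 bases long and began 1 base before the start, in *Snhg1* it was 4 bases long and also began 1 base before the start, in *Snhg8* it was 6 bases long and began at the start base, and in *Snhg12* it was 8 bases long and began 2 bases before it. A run at least as long within the same 20 bases on either side was found in 29.4% of all 32851 windows for the length in *Gas5* and *Snhg8*, 67.2% for that in *Snhg1* and 12.6% for that in *Snhg12*, so that the length in *Snhg1* is common. The other *Gas5* start held a longest run of 3 bases, beginning 5 bases before it. A run of at least 4 bases that began within 2 bases of a start was found in 16.6% of all genes with a window. It was found in all 4 of these hosts, *Gas5* at 1 of its 2 starts only. The limits equal the run length in *Snhg1* and the position of the run in *Snhg12*, so that the count of 4 tests nothing. The run was also found in 5 of 15 other long noncoding hosts (33.3%) and in 4 of 19 protein-coding hosts of snoRNAs (21.1%). Whether such runs bear on the levels was not tested. Recorded starts can lie a few bases from the true one, so that the distance of a run from the start is approximate. Motifs of the clock were searched on both strands of the full windows, 250 bases before to 50 bases from the start. The E-box CACGTG was in 0 of the 6 windows of these genes (7.15% of all windows), the related CACGTT in the window of *Snhg1* only (4.68% of all), the D-boxes TTATGTAA and TTATGCAA in 0 (1.66% of all) and AGGTCA, the core site of ROR and REV-ERB receptors, in 0 (16.3% of all). The cyclic AMP response element TGACGTCA was in the window of the *Gas5* start shown (1.79% of all), its shorter core TGACG, which also counts each full element, in windows of *Gas5*, *Malat1*, *Snhg8* and *Snhg12* (20.8% of all), and TATAAA in those of *Snhg1* and *Snhg8* (13.6% of all). Such a match describes the letters and does not show that a factor binds there.

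A few of the hosted snoRNAs are shown because they are the product of these genes that the libraries did not measure. They are *Snord47* from *Gas5* (chr1:161038082-161038158, plus strand, 77 bases), *Snora24* from *Snhg8* (chr3:123507937-123508066, minus strand, 130 bases) and *Snord99* from *Snhg12* (chr4:132310691-132310764, plus strand, 74 bases), as annotated by GENCODE M21 on GRCm38. Capitals mark the C box TGATGA near the beginning and the D box CTGA near the end of the C/D box snoRNAs, and the ACA near the end of the H/ACA box snoRNA.
Snord47: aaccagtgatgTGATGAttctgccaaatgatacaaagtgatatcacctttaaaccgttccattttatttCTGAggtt
Snora24: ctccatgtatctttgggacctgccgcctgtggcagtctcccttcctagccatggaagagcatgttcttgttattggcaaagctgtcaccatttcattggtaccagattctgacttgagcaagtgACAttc
Snord99: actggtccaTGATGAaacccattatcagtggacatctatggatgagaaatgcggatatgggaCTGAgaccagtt
The annotation places 24 snoRNA entries inside the 4 hosts, some of them overlapping, with 10 in *Gas5*, 8 in *Snhg1*, 1 in *Snhg8* and 5 in *Snhg12*. Of the 24 entries 1, *Snora16a* in *Snhg12*, had any counts, with 6 reads in total, against 25582 reads on the 4 hosts. Poly-A RNA was sequenced, and snoRNAs carry no poly-A tail. Reads inside a snoRNA also lie inside its host, and how such reads were counted is not given. The lengths listed for *Snhg1* (2969 bases) and *Snhg8* (853 bases) equal their whole annotated spans, so that reads in introns may be counted there. The values below are therefore those of poly-A RNA of the hosts, spliced or not, and say nothing of the amount of snoRNA.

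Between 14471018 and 22785835 reads were counted on genes per library, of which immunoglobulin genes took 51.5% to 63.6%. In control mice this share was 51.5% to 53.3452% at ZT0 and 53.3455% to 63.6% at ZT12, so that the times did not overlap. It was 53.6% to 59.4% in knockout mice at ZT0 and 53.7% to 55.7% at ZT12. A fit with this share as a covariate therefore cannot fully separate the share from time in control mice. *Arntl* was at 6.83 to 8.36 CPM (read counts scaled to the TMM-normalised library size) in control mice at ZT0 and 4.00 to 5.56 at ZT12, and at 4.51, 4.08, 6.47 and 4.42 CPM in knockout mice at ZT0 and 3.11 to 4.93 at ZT12. These counts cover the whole gene, the deleted part not being separated. *Cd79a*, into which Cre is inserted, was at 386 to 586 CPM in control mice and at 163 to 276 in knockout mice, so that the genotypes did not overlap. Plasma cell markers summed to 282602 CPM or more in each library. Epithelial markers summed to 55.0 to 201 CPM in control mice at ZT0, 73.6 to 963 at ZT12, 73.5 to 86.5 in knockout mice at ZT0 and 65.5 to 494 at ZT12. Markers of T cells, myeloid cells, other B cells and stromal or endothelial cells each summed to between 16.5 and 122 CPM in a library. Each marker of these lists had counts in at least 1 library.

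Relative to gene length, *Malat1* was the most abundant of the 6 RNAs, at 85.8 ± 15.5 CPM per kb (SD, n = 21), followed by *Neat1* at 48.7 ± 16.3, *Gas5* at 12.0 ± 2.82, *Snhg12* at 6.31 ± 2.46, *Snhg1* at 4.89 ± 1.35 and *Snhg8* at 4.81 ± 1.36 CPM per kb. *Malat1* exceeded *Neat1*, *Neat1* exceeded *Gas5* and *Gas5* exceeded *Snhg12* in each of the 21 libraries. The last 3 were not separated by their spread, since *Snhg12* exceeded *Snhg1* in 18 libraries and *Snhg1* exceeded *Snhg8* in 12. The row of *Neat1* spans 20771 bases, and a short polyadenylated form of *Neat1* covers only a part of them, so that its level per kb depends on the length used. For *Snhg1* and *Snhg8* the length used is the whole annotated span, whereas for *Gas5* (3760 bases) and *Snhg12* (1626 bases) it is shorter than the span. The order of the hosts per kb therefore also depends on the lengths used. *Malat1* ends without an ordinary poly-A tail, which also bears on how fully poly-A selection recovers it. As each library is a bulk sample, a change in the share of cells that make an RNA and a change in the RNA per cell cannot be told apart.

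*Malat1* (ENSMUSG00000092341, chromosome 19, 5795690 to 5802672, minus strand) had group means between 552 and 645 CPM. In control mice its lowest, median and highest levels were 558, 586 and 845 CPM at ZT0, and at ZT12 420, 628 and 683 CPM. The knockout mice had levels of 776, 479, 699 and 514 CPM when sampled at ZT0, and of 629, 514, 470, 559 and 590 CPM at ZT12. All 4 groups overlapped, and the highest level was that of a control mouse at ZT0. The log2 difference between ZT12 and ZT0 was -0.15 (standard error 0.14, 95% confidence interval -0.44 to 0.13) in control mice and -0.16 (standard error 0.16, interval -0.49 to 0.17) in knockout mice, and the genotypes differed in this difference by -0.01 (standard error 0.21, interval -0.45 to 0.43). In control mice the value was -0.06 without ZT0 replicate 3, -0.07 without ZT12 replicate 6, -0.09 without ZT12 replicate 5 and -0.04 with the trend on gene length removed. In knockout mice leaving out 1 library gave -0.28 (without ZT0 replicate 2) to -0.04 (without ZT0 replicate 1).

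*Neat1* (ENSMUSG00000092274, chromosome 19, 5824708 to 5845478, minus strand) was uniform in control mice at ZT0 and dispersed in the other groups. Control mice at ZT0 had 777, 915 and 952 CPM as the lowest, median and highest level. Control mice at ZT12 had 850, 1663, 1292, 1807, 1201 and 622 CPM (replicates 1 to 6). At ZT12 replicates 2, 3, 4 and 5 lay above each control mouse at ZT0, whereas replicates 1 and 6 did not. Knockout mice had 1347, 725, 1505 and 711 CPM at ZT0, and at ZT12 884, 1132, 689, 726 and 719 CPM. In this genotype the 2 highest mice were at ZT0 and the groups overlapped. Mean levels were 894 ± 65.2 (SD, n = 6) and 1239 ± 456 CPM (SD, n = 6) in control mice and 1072 ± 414 (SD, n = 4) and 830 ± 185 CPM (SD, n = 5) in knockout mice, at ZT0 and ZT12 respectively. The log2 difference was 0.47 (standard error 0.23, interval -0.02 to 0.96, edgeR adjusted p = 0.292) in control mice and -0.37 (standard error 0.27, interval -0.93 to 0.19, edgeR adjusted p = 0.743) in knockout mice. When each library's trend on gene length was removed the value in control mice was 0.80, and with a covariate for the share of immunoglobulin counts it was 0.02, neither being called. Without knockout ZT0 replicate 3 the value in knockout mice was -0.16.

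*Gas5* (ENSMUSG00000053332, chromosome 1, 161034422 to 161038539, plus strand), a growth arrest-associated host of C/D box snoRNAs, had 35.5, 41.7 and 48.7 CPM as lowest, median and highest level in control mice at ZT0. At ZT12 control mice had 36.5, 72.8, 50.4, 62.4, 45.3 and 35.3 CPM. Replicates 2 and 4 were well above the ZT0 range, replicate 3 just above it, and the other 3 within or just below it. Knockout mice had 43.5, 41.1, 68.6 and 40.3 CPM at ZT0, of which replicate 3 stood apart, and 35.0, 47.8, 41.0, 38.2 and 41.9 CPM at ZT12. The log2 difference was 0.27 (standard error 0.16, interval -0.06 to 0.61, edgeR adjusted p = 0.384) in control mice and -0.24 (standard error 0.19, interval -0.63 to 0.14, edgeR adjusted p = 0.758) in knockout mice. Without knockout ZT0 replicate 3 the latter was -0.03, and without control ZT12 replicate 2 the former was 0.14. With the immunoglobulin share as a covariate the value in control mice turned to -0.14.

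*Snhg1* (ENSMUSG00000108414, chromosome 19, 8723475 to 8726443, plus strand), also a host of C/D box snoRNAs, had 9.9997, 13.4 and 16.2 CPM in control mice at ZT0 as lowest, median and highest level. At ZT12 control mice had 10.8, 20.9, 17.6, 22.4, 12.5 and 12.4 CPM. Replicates 2, 3 and 4 lay above the ZT0 range and the others inside it. Knockout mice had 14.0, 13.3, 24.9 and 12.2 CPM at ZT0, and at ZT12 11.4, 16.2, 14.0, 11.4 and 11.4 CPM. Replicate 3 at ZT0 again stood apart and was the highest of all 21 mice. The log2 difference was 0.28 (standard error 0.19, interval -0.11 to 0.68, edgeR adjusted p = 0.451) in control mice and -0.32 (standard error 0.22, interval -0.78 to 0.14, edgeR adjusted p = 0.734) in knockout mice. Leaving out knockout ZT0 replicate 3 changed the latter to -0.03, leaving out control ZT12 replicate 4 changed the former to 0.17, and the immunoglobulin share as a covariate turned the former to -0.09.

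*Snhg8* (ENSMUSG00000104960, chromosome 3, 123507552 to 123508404, minus strand) hosts the H/ACA box snoRNA shown above and had the smallest p of the 6 genes in control mice. Control mice had 2.86, 3.34 and 4.20 CPM at ZT0 as lowest, median and highest level, and 3.62, 6.14, 6.39, 6.09, 5.52 and 3.06 CPM at ZT12. Replicates 2, 3, 4 and 5 at ZT12 were above each control mouse at ZT0, and replicates 1 and 6 were not, as for *Neat1*. Knockout mice had 3.63, 3.51, 5.07 and 2.73 CPM at ZT0, and at ZT12 3.64, 4.08, 5.31, 3.54 and 3.28 CPM, and the 2 times overlapped. The log2 difference was 0.58 in control mice, the level being higher at ZT12 (standard error 0.21, interval 0.16 to 1.01, edgeR adjusted p = 0.142), and 0.09 in knockout mice (standard error 0.24, interval -0.40 to 0.58, edgeR adjusted p = 0.951). Without control ZT12 replicate 6 the value in control mice was 0.70 with an adjusted p of 0.0498 from edgeR, the only fit among those run in which 1 of the 6 genes was called. With the trend on gene length removed it was 0.26. In knockout mice leaving out 1 library gave -0.05 (without ZT0 replicate 4) to 0.27 (without ZT0 replicate 3). These levels rest on 47 to 104 counts per library, and 47 counts give a 95% Wilson interval of 2.44 to 4.32 around 3.25 CPM of all counts.

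*Snhg12* (ENSMUSG00000086290, chromosome 4, 132308678 to 132311024, plus strand), which hosts snoRNAs of both classes, was the most variable of the 6 RNAs, with a coefficient of variation of 39.0% over the 21 libraries against 18.0% for *Malat1*. Control mice had 5.61, 7.68 and 11.1 CPM at ZT0 as lowest, median and highest level, and 8.402, 17.7, 12.5, 16.1, 9.96 and 8.31 CPM at ZT12. Knockout mice had 14.8, 10.8, 19.1 and 6.21 CPM at ZT0, and at ZT12 6.78, 13.2, 9.82, 8.43 and 4.92 CPM. Replicates 2, 3 and 4 of the control mice at ZT12 were above the control ZT0 range, and knockout mice held both the highest value, at ZT0, and the lowest, at ZT12. The log2 difference was 0.59 (standard error 0.27, interval 0.02 to 1.16, edgeR adjusted p = 0.258) in control mice and -0.56 (standard error 0.31, interval -1.21 to 0.10, edgeR adjusted p = 0.66) in knockout mice. With the immunoglobulin share as a covariate the first of these was 0.10, and without knockout ZT0 replicate 3 the second was -0.29.

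**Figure D1:**
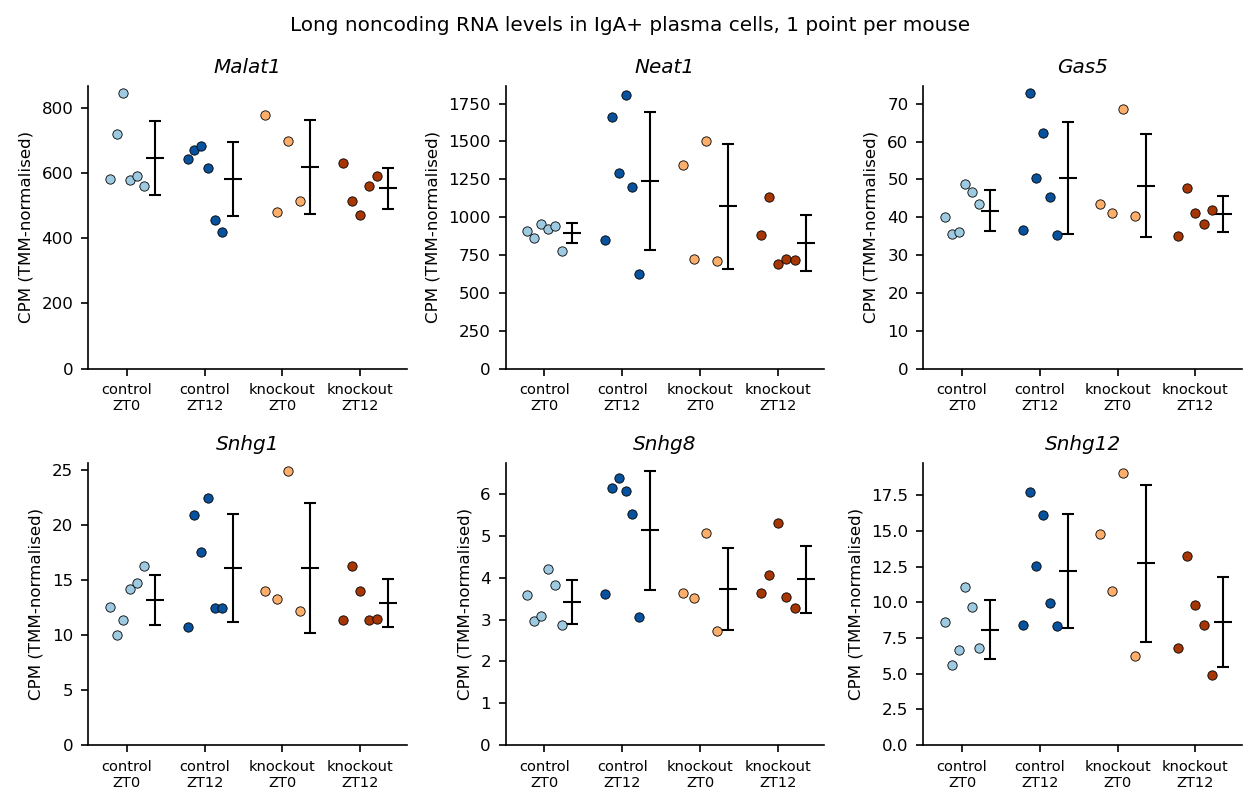
Level of each of the 6 RNAs in TMM-normalised CPM (vertical axis from 0), with 1 point per mouse in the 4 groups and the group mean with its SD as a bar beside the points. *Neat1* spreads from 777 to 952 CPM in control mice at ZT0 and from 622 to 1807 CPM at ZT12, and each of the 6 RNAs overlaps between the times in both genotypes.

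Of the 6 RNAs, 5 had a positive and 1 a negative log2 difference in control mice, and 1 had a positive and 5 a negative one in knockout mice. In control mice 0 of the 6 were called at an adjusted p under 0.05 by edgeR (2 with an unadjusted p under 0.05, *Snhg8* and *Snhg12*, and 0 called by DESeq2), where 350 of 20256 genes were called (1.73%). The unadjusted p was under 0.05 for 3657 of the 20256 (18.1%). Of all genes, 0.948% were called higher and 0.78% lower at ZT12. The split was 192 higher and 158 lower with TMM normalisation, and 48 higher and 398 lower when libraries were scaled by their total alone, which moved the median of all genes to -0.20. Under that scaling *Malat1* was at -0.36 and the other 5 RNAs lay between 0.03 and 0.36 in control mice, each but *Malat1* above that median. The knockout mice gave 0 called of the 6 by edgeR (0 at an unadjusted p under 0.05, 0 by DESeq2), where 0 of 20256 genes were called (0%; 1622, or 8.01%, had an unadjusted p under 0.05, and DESeq2 called 47). The median log2 difference of the 6 was 0.38 in control mice and -0.28 in knockout mice, against 0.01 for all genes in either genotype. None of the 6 separated ZT0 from ZT12 without overlap, which 1.6% of all genes did in control mice and 2.63% in knockout mice.

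The interaction compares the time of day difference of knockout mice with that of control mice. It was negative for all 6 RNAs, with a median of -0.56 against 0.01 for all genes. *Malat1*, at -0.01 (standard error 0.21), reversed its sign in 5 of 12 alternatives and in 12 of 21 fits that left out 1 library. The other 5 share deviations from mouse to mouse, described below, so that their signs are not independent. The interaction was called for 0 of the 6 by edgeR (3 with an unadjusted p under 0.05) and for 0 by DESeq2. By edgeR 0 of 20256 genes were called (0%), with 2191 (10.8%) at an unadjusted p under 0.05, and DESeq2 called 4 genes. *Snhg12* differed most, by -1.15 (standard error 0.42, interval -2.02 to -0.28, edgeR adjusted p = 0.442), followed by *Neat1* at -0.84 (standard error 0.35, interval -1.58 to -0.10, edgeR adjusted p = 0.444). *Snhg1*, *Gas5* and *Snhg8* followed with -0.60, -0.52 and -0.49, of which *Gas5* had the interval -1.03 to -0.00 (edgeR adjusted p = 0.461). These interactions share libraries with the 2 comparisons above. Leaving out knockout ZT0 replicate 3 brought them to -0.89 for *Snhg12*, -0.63 for *Neat1*, -0.31 for *Snhg1*, -0.30 for *Gas5* and -0.31 for *Snhg8*. The immunoglobulin share as a covariate brought them to -0.57, -0.31, -0.15, -0.03 and -0.13 in the same order, and removal of the length trend moved *Neat1* to -1.32.

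Between genotypes at one time, 0 of the 6 RNAs were called by edgeR or by DESeq2. At ZT0 the background was 0.00987% of all genes, and *Snhg12* was higher in knockout mice by 0.65 (standard error 0.30, edgeR adjusted p = 0.926, and 0.39 without knockout ZT0 replicate 3) while the other 5 lay between -0.06 and 0.28. At ZT12 the background was 0.0148%, and *Neat1* had a difference of -0.58, lower in knockout mice (standard error 0.25, edgeR adjusted p = 0.562) while the other 5 lay between -0.49 and -0.07. At each time 1 of the 6 had an unadjusted p under 0.05, as had 4.9% of all genes at ZT0 and 8.83% at ZT12. In 0 of the 6 did the genotypes separate without overlap, which 0.977% of all genes did at ZT0 and 0.38% at ZT12.

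**Figure D2:**
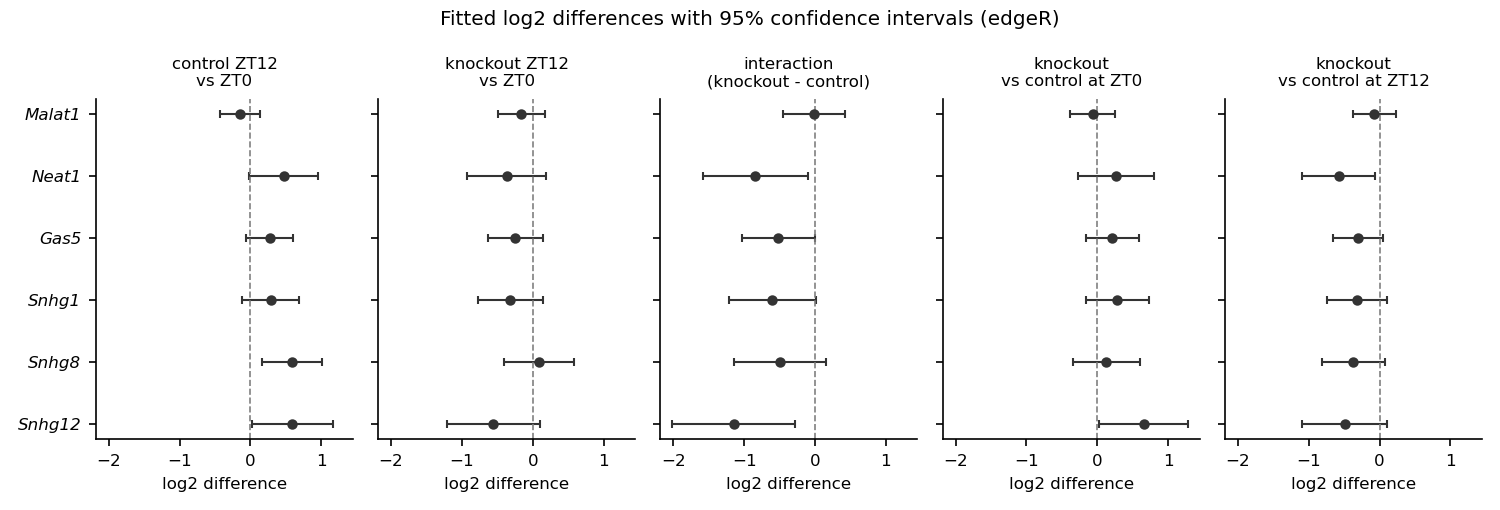
Fitted log2 difference (horizontal axis) of each RNA (rows) in the 5 comparisons, 1 panel each, with 95% confidence intervals computed from the edgeR test. In the interaction panel each of the 6 points lies below 0, from -1.15 for *Snhg12* to -0.01 for *Malat1*, and 0 of the 30 points were called.

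Deviations from mouse to mouse were shared by *Neat1* and the hosts. Over the 21 libraries, after subtracting the group means of the log2 level, Pearson's r was 0.92 between *Gas5* and *Snhg1* and 0.72 to 0.80 for the other pairs of hosts. *Neat1* followed the hosts with r from 0.70 to 0.77 although it hosts no snoRNA, and *Malat1* followed them with r of 0.16 to 0.22 and *Neat1* with r of 0.59. These are descriptions over libraries that share a normalisation and differ in depth and immunoglobulin share. When the 2 libraries farthest from the median deviation of the second gene of a pair were left out, r was 0.88 between *Gas5* and *Snhg1*, 0.67 to 0.88 for the other pairs of hosts, 0.57 to 0.75 between *Neat1* and the hosts, -0.08 to 0.16 between *Malat1* and the hosts and 0.49 between *Malat1* and *Neat1*.

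The same libraries were high in a response of immediate early and heat shock genes. This set of 13 genes, among them *Fos*, *Jun* and *Hspa1a*, is known to be induced while tissue is digested into single cells and also by stimulation in vivo. Its summed level was 2980 to 6892 CPM in control mice at ZT0. By replicate, the control mice sampled at ZT12 had 4337, 8924, 7064, 7724, 6965 and 3056 CPM, so that replicates 1 and 6, which had the low *Neat1* and *Snhg8* levels, also had the lowest sums. Sums of the knockout mice were 4998, 4856, 9552 and 3391 CPM at ZT0, replicate 3 being the highest of all 21, and 2852 to 5245 CPM at ZT12. Within groups the sum followed *Neat1* with r of 0.81, the 4 hosts with r of 0.72 to 0.83 and *Malat1* with r of 0.31. Without the 2 libraries farthest from the median within-group deviation of the sum, these were 0.70, 0.63 to 0.81 and 0.06. All 13 genes had a positive log2 difference in control mice (median 0.61), with 0 called by edgeR and 5 at an unadjusted p under 0.05, and 9 of the 13 had an unadjusted p under 0.05 in the interaction with 0 called. In knockout mice 3 were positive and 10 negative (median -0.53, 0 called, 6 at an unadjusted p under 0.05). At ZT12, 11 of the 13 were lower in knockout than in control mice (median -0.63, 0 called, 9 at an unadjusted p under 0.05). Without knockout ZT0 replicate 3 and control ZT12 replicate 2, the libraries with the 2 highest sums, the interaction was -0.75 for *Snhg12*, -0.53 for *Neat1*, -0.26 for *Snhg8*, -0.22 for *Snhg1* and -0.17 for *Gas5*. The part of this response in the differences above was not tested. The immunoglobulin share followed the hosts with r of 0.55 to 0.72 and *Neat1* with 0.59. Without the 2 libraries farthest from the median within-group deviation of the share, these were 0.28 to 0.45 and 0.43, the value of *Snhg1* moving from 0.55 to 0.28. The epithelial sum followed the hosts and *Neat1* with r of -0.16 to 0.17, and with r of 0.17 to 0.48 without the 2 libraries farthest from its median within-group deviation.

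For each RNA the 3 genes with the most similar deviations were found among 6571 genes with a mean of at least 10 CPM. For *Neat1* they were *Ier5* (r = 0.94), *Csrnp1* (r = 0.93) and *Gla* (r = 0.93), the first of them an immediate early gene. For *Gas5* they were *Rabggtb* (r = 0.94), *Rplp1* (r = 0.94) and *Sec11c* (r = 0.93), the last 2 encoding a ribosomal stalk protein and a subunit of the signal peptidase of the secretory pathway. For *Snhg1* they were *Gas5* (r = 0.92) and the ribosomal protein genes *Rpl36a* (r = 0.91) and *Rpl37* (r = 0.90). For *Snhg8* they were *Tbc1d10a* (r = 0.87), *Metap1d* (r = 0.85) and again *Rpl37* (r = 0.83). For *Snhg12* they were *Prg2* (r = 0.92), the stress response phosphatase subunit *Ppp1r15a* (r = 0.90) and *Cnot8* (r = 0.90), a deadenylase subunit. For *Malat1* they were *Pole2* (r = 0.80), *Oasl1* (r = 0.80) and the long noncoding RNA *Ftx* (r = 0.77). The highest of so many correlations are large by selection alone, so that they rank the genes and test nothing.

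Other snoRNAs lie in introns of protein-coding genes, mostly genes of ribosomal proteins and translation factors. Of 24 such genes, 15 were called higher at ZT12 in control mice and 0 lower, beside 0.948% of all genes called higher, and their median log2 difference was 0.60 against 0.01 for all genes. Most of the called genes encode ribosomal proteins. Not called were *Ncl*, *Nop56*, *Hspa8*, *Eif4a1*, *Eif4a2* and *Dkc1*, and the ribosomal protein genes *Rpl7a*, *Rpl23a* and *Rps2*. Ribosomal protein genes without snoRNAs were not compared, so that whether the rise is particular to snoRNA hosts was not tested. *Eef2*, the translation elongation factor that moves the ribosome along, rose from 1077 ± 31.1 to 1576 ± 267 CPM (SD, n = 6 each), by 0.55 (standard error 0.10, edgeR adjusted p = 0.0103). The ribosomal protein gene *Rpl4* rose from 385 ± 8.06 to 579 ± 122 CPM, by 0.59 (standard error 0.11, edgeR adjusted p = 0.0115). *Rpl5*, of the same class, rose by 0.72 (standard error 0.14, edgeR adjusted p = 0.0197), and *Rack1*, a scaffold protein on the small ribosomal subunit, by 0.63 (standard error 0.13, edgeR adjusted p = 0.0197). These 4 were taken as the called genes of smallest p in the list. In each of them the control mice at ZT12 were all above those at ZT0, where 1.6% of all genes did not overlap between the times. As the genes were chosen by p from the same mice, this separation adds no support. Among the same 24 genes the knockout mice gave 0 calls by edgeR (1 unadjusted p under 0.05, median 0.12), and the interaction likewise gave 0 (16 unadjusted p under 0.05, median -0.49). DESeq2 called 16 of the 24 higher in control mice, where it called 621 of 12381 genes higher, a larger share than that of edgeR.

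Of the 4 genes, *Eef2* and *Rpl4* were called in each of the 12 fits that left out 1 control library, and *Rpl5* and *Rack1* in 9 of them, the calls being lost without ZT0 replicate 1, ZT0 replicate 2 or ZT12 replicate 4. With the immunoglobulin share as a covariate none of the 4 was called. The count of 15 also depended on the fit. It was 0 with the immunoglobulin share as a covariate, 0 at a threshold of 0.01, 0 in a fit of the control mice alone, 3 without TMM factors and 5 with the epithelial level as a covariate. It was 2 without control ZT0 replicate 1, ZT0 replicate 2 or ZT12 replicate 4, 5 without ZT0 replicate 5 or ZT12 replicate 2, 6 without ZT0 replicate 3 or ZT12 replicate 3, 8 without ZT0 replicate 4 and 9 without ZT0 replicate 6. Many of these genes have processed pseudogenes with near-identical sequence, and how reads shared with them were counted is not given in the sources used here.

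The summed level of the coding hosts followed the noncoding ones from mouse to mouse, with r within groups of 0.90 for *Gas5*, 0.81 for *Snhg1*, 0.76 for *Snhg12* and 0.71 for *Snhg8*, 0.85 for *Neat1* and 0.47 for *Malat1*. Without the 2 libraries farthest from the median within-group deviation of the sum, these were 0.85, 0.86, 0.76, 0.66, 0.84 and 0.29 in the same order. Whether the time of day difference of the coding hosts exceeds that of the noncoding hosts was not tested.

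**Figure D3:**
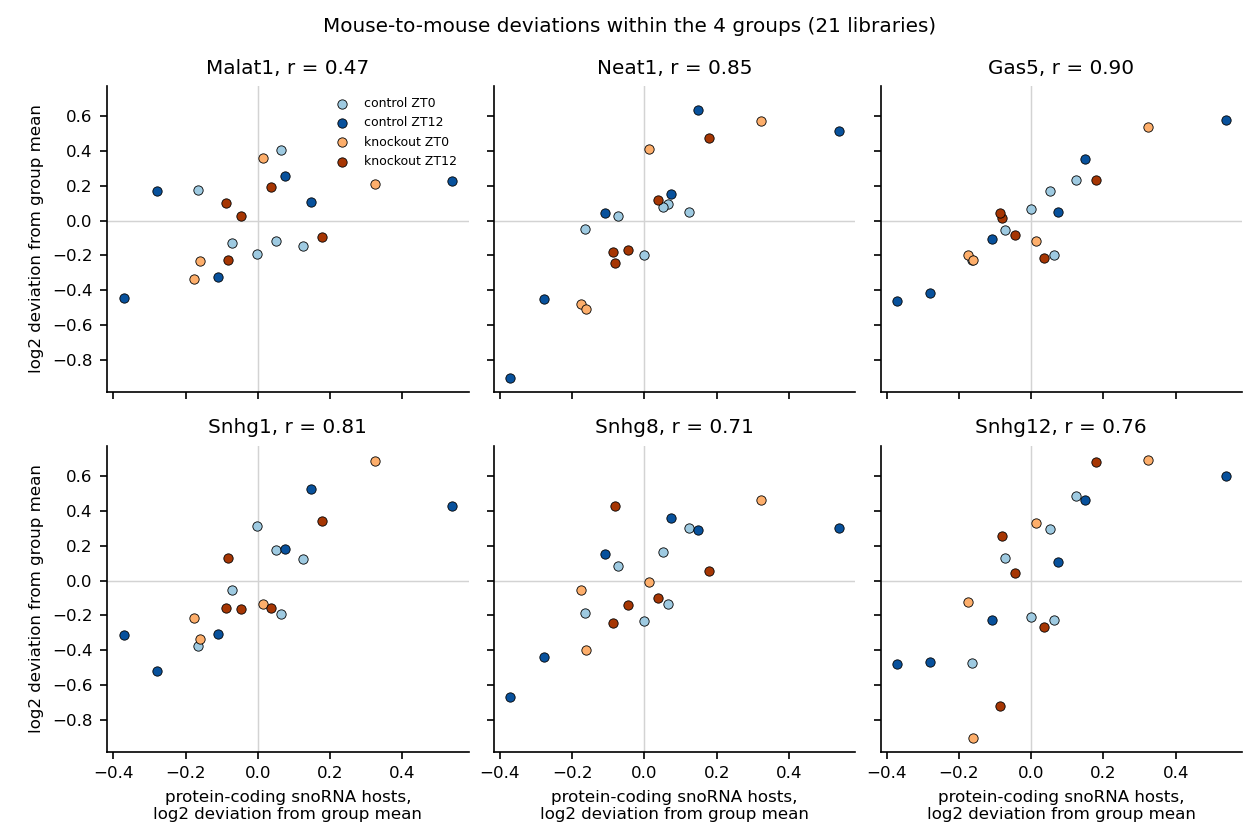
Deviation of each RNA from its group mean (vertical axis, log2 CPM) against the deviation of the summed protein-coding snoRNA hosts (horizontal axis, log2 CPM), with 1 point per library coloured by group and Pearson's r over 21 libraries in each title. *Gas5* lies closest to a line (r = 0.90) and *Malat1* farthest from one (r = 0.47).

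Of 18 other long noncoding snoRNA hosts listed, 15 were tested and 0 were called in any of the 5 comparisons. In control mice 12 had a positive log2 difference (median 0.32, 4 with an unadjusted p under 0.05), and in knockout mice 3 did (median -0.15, 0 with an unadjusted p under 0.05). In the interaction 10 of 15 were negative (median -0.34, 4 with an unadjusted p under 0.05). *Snhg15*, *Snhg6* and *Zfas1*, named after their values were seen, had log2 differences of 0.61, 0.48 and 0.57 in control mice and of -0.20, -0.35 and -0.45 in knockout mice (adjusted p = 0.0949, 0.148 and 0.158 from edgeR in control mice). Several of the 15 were at under 1 CPM, and the widest differences in the list came from these.

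**Figure D4:**
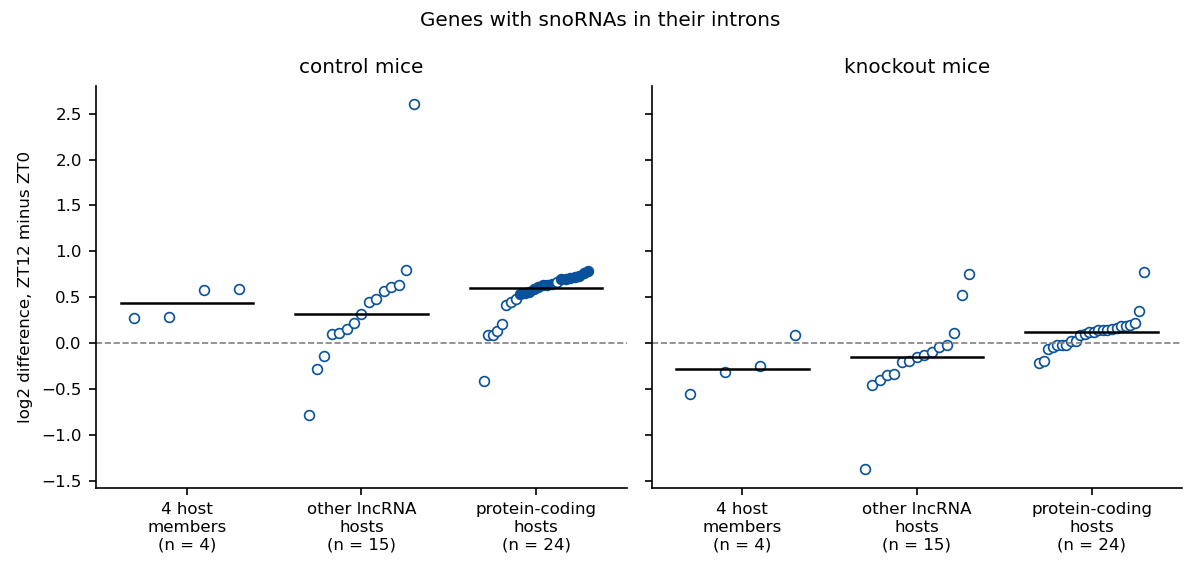
Log2 difference between ZT12 and ZT0 (vertical axis) in control mice and in knockout mice for the 4 host genes described here, the 15 other long noncoding hosts tested and the 24 protein-coding hosts, with filled points for genes called by edgeR and a black line at each median. All 15 filled points are protein-coding hosts in control mice.

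Lists of the proteins that work with these RNAs were read beside the 1.73% of all genes called in control mice. Among 12 paraspeckle proteins, 1 was called in control mice and 0 in the other comparisons. This was *Pspc1*, which pairs with the core paraspeckle proteins and fell from 20.7 ± 3.47 to 14.7 ± 2.02 CPM (SD, n = 6 each), by 0.49 on the log2 scale (edgeR adjusted p = 0.0408). The call held when any 1 of 4 of the 12 control libraries was left out and was lost for the other 8 (ZT0 replicates 1, 2, 3, 5 and 6 and ZT12 replicates 2, 4 and 5), with log2 differences of -0.68 to -0.34 over the alternatives and libraries left out. Among 18 nuclear speckle proteins, 8 core proteins of snoRNPs and 10 factors of nonsense-mediated decay, 0 were called in any comparison, with medians in control mice of 0.08, 0.12 and -0.07 and with 6, 2 and 3 at an unadjusted p under 0.05.

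In control mice 0 of 9 plasma cell markers, 0 of 12 epithelial, 0 of 10 T cell, 0 of 10 myeloid and 0 of 9 other B cell markers were called, and 1 of 8 stromal and endothelial markers was, *Pecam1*, which fell by 0.51 on the log2 scale (edgeR adjusted p = 0.0494). That call held in 2 of the 12 fits that left out 1 control library (ZT12 replicate 1 or 6). All 12 epithelial markers had a positive log2 difference (median 2.66, 7 with an unadjusted p under 0.05). Control ZT12 replicate 5, with the highest epithelial sum, had *Neat1* at 1201 CPM, *Gas5* at 45.3 CPM and *Snhg12* at 9.96 CPM, each below the mean of its group, while *Snhg8* at 5.52 CPM was above its group mean of 5.14 CPM. With the epithelial level as a covariate the log2 difference in control mice was 0.49 for *Neat1*, 0.30 for *Gas5*, 0.29 for *Snhg1*, 0.59 for *Snhg8* and 0.77 for *Snhg12*. The part of epithelial RNA in the differences of the 6 RNAs was not tested.

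Genes next to the 6 RNAs can share reads with them where strand was not used in counting. *Zbtb37* overlaps the beginning of *Gas5* on the other strand and had a log2 difference of -0.55 in control mice (standard error 0.24, edgeR adjusted p = 0.219), opposite in sign to that of *Gas5*. *Slc3a2*, which encodes the CD98 amino acid transporter subunit, starts 106 bases from *Snhg1* in the opposite direction and had 143449 counts in total against 5001 for *Snhg1*, with a log2 difference of 0.08 (standard error 0.12). *Frmd8* and *Frmd8os* beside *Neat1* and *Trnau1ap* beside *Snhg12* were not called in any comparison. The 3 annotated genes within *Malat1* had 0 counts in all libraries.

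The sex of each mouse is not given in the labels, and the level of *Xist*, the RNA that silences the second X chromosome in females, fell into separate ranges. In 10 libraries it was 329 to 479 CPM and in 11 it was 0.49 to 3.51 CPM. In the control mice each range held 3 libraries at each time, in the knockout mice 2 and 2 at ZT0 and 2 and 3 at ZT12. The difference of log2 means between ZT12 and ZT0 in control mice was positive in both ranges for *Neat1* (0.40 at high and 0.37 at low *Xist*), *Gas5* (0.41 and 0.05), *Snhg1* (0.32 and 0.17), *Snhg8* (0.62 and 0.45) and *Snhg12* (0.72 and 0.40). In knockout mice it was negative in the 4 libraries with high *Xist* and positive in the 5 with low *Xist*, at -0.84 and 0.20 for *Neat1*, -0.51 and 0.05 for *Gas5*, -0.71 and 0.11 for *Snhg1*, -0.30 and 0.44 for *Snhg8* and -1.52 and 0.33 for *Snhg12*. The difference between genotypes in the time of day difference was -2.24 for *Snhg12* and -1.23 for *Neat1* at high *Xist*, and -0.07 and -0.16 at low *Xist*. Each knockout value rests on 2 or 3 mice per time, the library of knockout ZT0 replicate 3 is among those with high *Xist*, and whether the ranges differ was not tested. With the log2 level of *Xist* as a covariate, 0 of the 6 RNAs were called in any comparison.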

How the data were processed

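RNA of CD138+ IgA+ cells, sorted by flow cytometry after collagenase D and DNase I digestion, was selected for poly-A and sequenced as paired 150-base reads on an Illumina NovaSeq by the authors, 1 library per mouse. The authors deposited raw, non-normalised read counts per gene with Ensembl identifiers and GRCm38 coordinates, which matched GENCODE M21. Aligner, counting tool, strand setting and build are not given in the sources used here. The submitters' processing notes name DESeq and DESeq2 without a version. Without strand, reads of a gene and an overlapping antisense gene cannot be told apart.

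From the counts, genes with at least 10 counts in total were kept, and 1 model with the 4 groups was fitted with edgeR 4.0.16 in R 4.3.3 (TMM normalisation, robust quasi-likelihood test). P-values were adjusted by Benjamini-Hochberg over all 20256 genes, and called means an adjusted p under 0.05. CPM are TMM-normalised. Within-group correlations used log2 CPM with a prior count of 2. The p-values measure the spread between mice. Intervals on counts are 95% Wilson intervals and cover counting error only. Replicates of a group differed beyond sampling noise (chi-square per gene of at least 26.9), and each was kept as 1 sample. Sequences, motifs and figures were handled in Python 3.11.15 (matplotlib 3.10.9). The fit was tested on simulated data.

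The members and lists were chosen with earlier results of these data known. The genes named are the 6 RNAs, at most 4 called genes per list and comparison, genes within 5 kb, hosted snoRNAs and the 3 genes most like each RNA. Exceptions are named as chosen after their values were seen. Alternatives were DESeq2 1.42.0, its size factors, library totals alone, removal of immunoglobulin genes, other filters, a threshold of 0.01, a fit of the compared groups alone, replicate number as a block, covariates, removal of the trend on gene length and leaving out each library. The level of *Xist* as a covariate and leaving out both libraries with the highest immediate early sum were added after seeing the data.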

Additional observations from a re-analysis of the deposited data

Results flagged for a closer look

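*Gas5* in knockout ZT0 replicate 3 was at 68.6 CPM, and the nearest of the other 3 mice of its group was at 43.5 CPM. *Snhg1* in the same library was at 24.9 CPM, and the nearest of the other 3 was at 14.0 CPM. Each of these gaps is large against the range of its group of 4. Among 24 groups examined in this way 2 stood out, and chance flags about 1 in 20 groups. The same library had the highest summed level of immediate early and heat shock genes, 9552 CPM, and an immunoglobulin share of 59.4%, against 53.6% to 53.7% in the other 3. Without it the log2 difference between knockout and control mice at ZT0 was -0.0060 for *Gas5* and -0.0047 for *Snhg1*, where it was 0.21 and 0.28 with it. The cause was not tested.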

How the results depend on the processing

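Under the alternatives that kept every library or left out 2 together, 0 of the 384 log2 differences of the 6 RNAs was called, 369 kept their sign and 15 reversed. Leaving out each library gave 378 values, of which 357 kept their sign uncalled, 20 reversed and 1 was called, *Snhg8* in control mice without ZT12 replicate 6 (0.70, adjusted p = 0.0498 from edgeR). The reversed values were small. For *Malat1* the interaction was 0.19 with library totals alone, 0.065 with the replicate block, 0.060 with the immunoglobulin share, 0.030 with the *Xist* level and 0.10 without both libraries of the highest immediate early sum, and its genotype difference at ZT12 was 0.066 with library totals alone. In control mice *Gas5* was at -0.14 and *Snhg1* at -0.092 with the immunoglobulin share. The genotype difference at ZT0 of *Snhg8* was -0.0034 with the replicate block, -0.045 with the immunoglobulin share, -0.017 with the length trend removed and -0.058 without both libraries, that of *Gas5* was -0.011 with the immunoglobulin share and -0.0070 without both libraries, and that of *Snhg1* was -0.0059 without both libraries. Leaving out 1 library gave ranges of -0.13 to 0.11 for the *Malat1* interaction and, for the genotype difference at ZT0, of -0.19 to 0.051 for *Malat1*, -0.0060 to 0.30 for *Gas5*, -0.0047 to 0.41 for *Snhg1* and -0.056 to 0.26 for *Snhg8*. The range was -0.049 to 0.27 for *Snhg8* between times in knockout mice, and 0 to 1 for the count of the 6 RNAs called in control mice.

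The 15 protein-coding hosts called higher in control mice became 3 with library totals alone, 0 at a threshold of 0.01, 0 in a fit of the control mice alone, 8 with the replicate block, 0 with the immunoglobulin share, 5 with the epithelial level, and 2 to 16 when 1 library was left out. The 350 genes called in control mice became 1052 with DESeq2, 14 at a threshold of 0.01, 38 in a fit of the control mice alone, 183 with the replicate block, 0 with the immunoglobulin share, 55 with the epithelial level, 202 without both libraries and 31 to 944 when 1 library was left out. The immunoglobulin share did not overlap between the times in control mice, so that its covariate cannot be fully separated from time there. Of the 13 alternatives other than leaving out 1 library, 10 kept the call of *Eef2*, *Rpl4* and *Rack1*, 11 that of *Rpl5*, 8 that of *Pspc1* and 4 that of *Pecam1*. The cause was not tested. Replicate numbers did not pair the samples, since deviations of the 28 pairs with the same number had a mean r of 0.0074 and 10 of them exceeded 0.1, and the block made 0 of the 6 RNAs called. Other groupings of the libraries, such as their order in the deposited counts, were not examined. Depth limits the levels of *Snhg8* most, at 47 to 104 counts per library. The fit of the compared groups alone was not run for the interaction, which needs all groups.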

Other observations

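Of 15 other long noncoding RNAs listed, 12 were tested, and edgeR called 0 of them between times in either genotype or in the interaction. The number at an unadjusted p under 0.05 was 2 in control mice, 3 in knockout mice and 2 for the interaction. Their log2 differences between ZT12 and ZT0 were positive in 9 of 12 in control mice (median 0.17) and in 3 of 12 in knockout mice (median -0.21). *Kcnq1ot1*, the imprinted antisense RNA that silences neighbouring genes, was named after its values were seen. It had a log2 difference of 0.78 in control mice (edgeR adjusted p = 0.176) and of -0.76 in knockout mice, and an interaction of -1.55 (edgeR adjusted p = 0.442). In knockout mice *Pvt1*, the neighbour of *Myc*, had a difference of -0.93 (edgeR adjusted p = 0.571) and *Jpx*, an RNA from the X-inactivation centre, one of -0.92 (edgeR adjusted p = 0.613), both also named after their values were seen.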
